A study of Rattus with 108 samples.

Results

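The 150 genes described here were chosen for a high value at 6 hours that had dropped again by 2 days in rat paw skin cut by lateral paw incision (LPI), a model of acute postsurgical pain. The choice was made among 32623 genes from the mean CPM (a gene's counts scaled to a fixed library total) of the LPI skin groups, after adding 1. The ratio of 6 hours to 0 day had to be at least 2, the mean at 2 days had to be at most 0.5 times that at 6 hours, and the 150 genes with the highest ratio were kept of the 273 that met both limits. The choice thus used the LPI skin libraries of 0 day, 6 hours and 2 days, and the values in LPI skin are a description with no test. The genes were then read in libraries that the choice had not used. These were skin of a second model, skin/muscle incision and retraction (SMIR), which stands for chronic postsurgical pain, and muscle of both models.

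RNA sequencing covered skin, muscle and dorsal root ganglia (DRG, which hold the cell bodies of sensory neurons) of 36 rats, with 27 groups of 4 libraries and 108 libraries in all. Both models were sampled at 0 day, 6 hours, 2 days and 10 days, and SMIR was followed up to 32 days. Every rat was perfused with saline under isoflurane, and skin and muscle came from the incised site. The sources used here do not give strain, sex, age or the state of the 0 day rats. No sham-operated group was analysed here, so that the incision, the anaesthesia and the hour of sampling cannot be told apart. The extraction protocol describes pools made from more than 1 animal, although the labels number single animals, and p-values therefore reflect how libraries of one group differ, which may be technical. LPI muscle came from the same rats as LPI skin and is not an independent set of animals, whereas the SMIR rats are separate.

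An incision sets off a wave of transcription in skin. Cells at the wound edge switch on immediate early genes, then genes of cytokines, chemokines and matrix-degrading enzymes, and neutrophils enter ahead of monocytes. Many of these transcripts are short-lived and fall again as inflammation gives way to repair. The deposited tables name genes by Ensembl ID only, and none of the IDs was paired with a gene name in the reference table, so that no function is given to any of the 150 genes. Each is named by its rank in the LPI skin ratio, rank 1 being the highest. The identity of the cells was read from genes enriched in one tissue at 0 day and not from marker genes.

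The skin libraries held 19080096 to 31620865 counts in LPI and 25249730 to 37482675 in SMIR. The muscle libraries held 21792696 to 30355655 counts in LPI and 29218629 to 41654479 in SMIR. In LPI muscle 5 libraries took 4.27% to 6.10% of their counts from 483 skin-enriched genes (rat 3 at 6 hours, rats 1, 3 and 5 at 2 days, rat 4 at 10 days), against 0.0818% to 0.542% in the other 11. The LPI muscle 0 day library of rat 1 took 0.0765% of its counts from 102 muscle-enriched genes, while the other 3 took 1.75% to 6.09%, so that this library goes against its label. Muscle-enriched genes held 0.0404% to 0.249% of the counts in LPI muscle at 2 days. The length trend is the correlation across genes of a library's deviation from the table mean with gene length. It was −0.127 to −0.0268 in LPI skin at 6 hours, against 0.0586 to 0.121 at 0 day. In SMIR skin it was −0.299 to −0.174 at 2 days, against 0.0831 to 0.131 at 0 day.

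In LPI skin the 6 hours to 0 day ratios of the 150 genes ran from 2.99 to 155.6, with a median of 4.60. A ratio of at least 10 was seen for 32 genes and of at least 5 for 67. The 5 genes just inside the limit had ratios of 2.99 to 3.04, and the 5 just outside had 2.95 to 2.97. The median of the genes' mean CPM was 6.34 at 0 day, 46.7 at 6 hours, 13.5 at 2 days and 9.38 at 10 days. In the 0 day group 34 genes had a mean under 1 CPM and 6 had at least 100 CPM, whereas at 6 hours none was under 1 CPM and 52 had at least 100 CPM. At 2 days 48 genes were still at least 2-fold above 0 day, after adding 1 CPM, and at 10 days 18 were, while 132 lay within 2-fold. The mean was highest at 6 hours for 149 of the genes and at 10 days for 1, rank 97, which is abundant in muscle. Over 137 of the genes, all 4 libraries at 6 hours lay above all 4 at 0 day. The choice used these libraries, and the share over all genes was not counted.

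The gene of rank 1, ENSRNOG00000014909, had 0.238, 0.214, 0.162 and 1.57 CPM in the LPI skin libraries at 0 day. It had 285, 272, 190 and 212 CPM at 6 hours, and 96.4, 48.4, 64.8 and 98.4 CPM at 2 days. The 3 times did not overlap, and at 0 day rat 4 stood above the other 3. Rank 2 had no count in any library at 0 day and 94.5, 111, 141 and 102 CPM at 6 hours. Against a floor of 3 counts over the 0 day group, this is at least 3598-fold higher at 6 hours. At 2 days rank 2 was uneven, with 30.9, 12.3, 10.2 and 2.78 CPM, all below the 6 hours libraries.

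Rank 7, ENSRNOG00000007159, was already present at 0 day and stands for the genes with a measurable starting level. It had 14.3, 12.04, 11.96 and 11.9 CPM at 0 day, 330, 363, 540 and 420 CPM at 6 hours, and 115, 80.5, 90.6 and 74.3 CPM at 2 days. At 10 days the values were 28.8, 10.3, 14.1 and 10.1 CPM, so that 1 library stayed above the 0 day range and the other 3 lay near it. On the FPKM scale, which is per length and allows levels to be set side by side between genes, rank 69 led at 6 hours with 758 ± 301 FPKM (SD, n = 4). Rank 68 followed with 648 ± 205 FPKM, rank 25 with 589 ± 314, rank 7 with 478 ± 107 and rank 122 with 456 ± 140 FPKM. These 5 levels lie within one another's spread and have no settled order. In CPM the 5 most abundant genes held 27.4% of the summed CPM of the 150 at 6 hours. The median length was 2318 bases for the 150 genes and 2410 for 14066 genes with a mean of at least 1 CPM.

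Of the 150 genes, 10 are highly abundant in muscle, with at least 1000 CPM in SMIR muscle at 0 day (ranks 8, 9, 26, 44, 64, 79, 85, 97, 114 and 147). In LPI skin at 6 hours each was high in rats 2 and 4 alone. Rank 8 had 61.9 CPM in rat 2, 54.8 in rat 4 and 0 in rats 3 and 5, against 0.102, 0.3, 0 and 0 CPM at 0 day. Summed, the 10 genes gave 4.59 to 214 CPM in the 6 hours libraries, against 4.79 ± 1.16 CPM at 0 day (SD, n = 4). At 10 days the sum was 64.9 and 121.7 CPM in rats 4 and 5 and 12.3 and 6.74 CPM in rats 6 and 7. The 102 muscle-enriched genes, of which none is a member, held 0.0240% to 0.0319% of the counts at 6 hours, against 0.0151% to 0.0214% at 0 day. The part of muscle tissue in the peak of these 10 genes was not tested. They are kept among the 150 and counted apart from the other 140, which hold the 137 with separated groups given above. The other 3, ranks 10, 40 and 93, overlapped between 6 hours and 0 day as well.

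**Figure D1:**
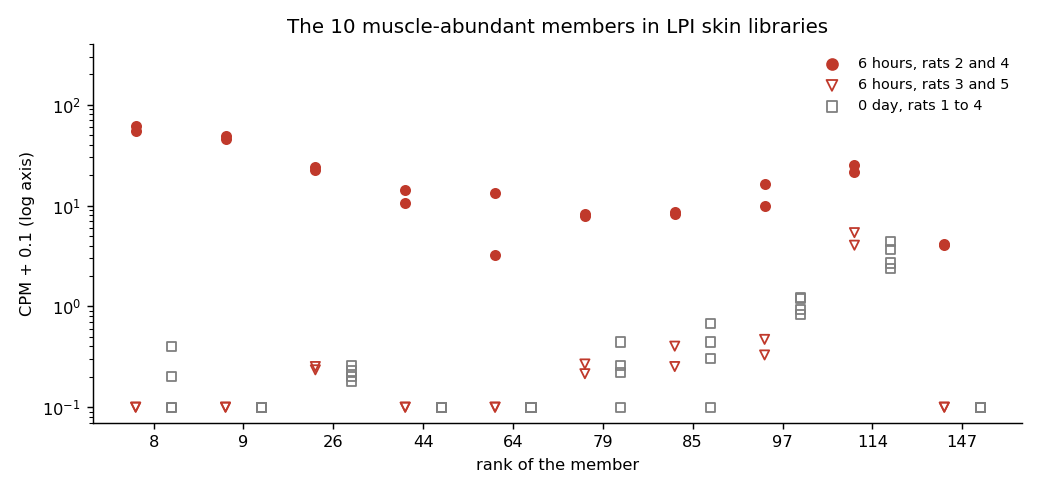
CPM plus 0.1 on a log axis of the 10 muscle-abundant genes in the LPI skin libraries, with 6 hours left of 0 day for each gene. Filled circles are rats 2 and 4 at 6 hours, triangles rats 3 and 5 at 6 hours and squares the 0 day libraries; only the circles stand above the 0 day values in all 10 genes.

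The summed CPM of the other 140 genes gives their course in each tissue. In LPI skin the sum was 3499 ± 401 CPM at 0 day, 18377 ± 1857 at 6 hours, 6538 ± 725 at 2 days and 4041 ± 372 at 10 days (SD, n = 4). In SMIR skin it was 4742 ± 376, 10589 ± 777, 8267 ± 737, 4905 ± 259 and 4534 ± 188 CPM over the 5 times. The rise by 6 hours and the fall by 2 days in LPI skin are what the genes were chosen for, so the LPI skin course sets no standard for the other tables. In LPI muscle it was 5583 ± 1400, 17046 ± 3594, 10175 ± 1788 and 5929 ± 2497 CPM over the 4 times. In SMIR muscle it was 1703 ± 149, 10302 ± 3859, 7737 ± 2169, 4726 ± 1716 and 2745 ± 1929 CPM. SMIR muscle had the lowest 0 day sum of the 4 tables, and the SD of both muscles after surgery was wide. In bulk tissue, a change in the number of cells of a type and a change in RNA per cell cannot be told apart.

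**Figure D2:**
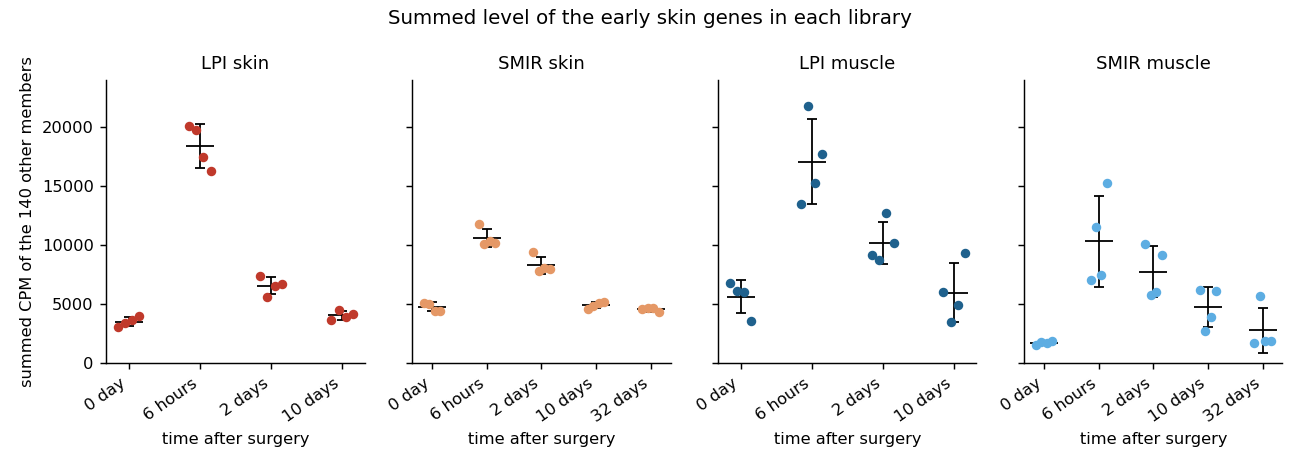
Summed CPM of the 140 genes that are not muscle-abundant, by time after surgery, in LPI skin, SMIR skin, LPI muscle and SMIR muscle. Points are libraries, and bars are the mean ± SD of 4 libraries; the mean is highest at 6 hours in all 4 panels and reaches 18377 CPM in LPI skin.

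In SMIR skin 100 of the 150 genes were higher at 6 hours than at 0 day and 6 were lower. Of all genes tested in that comparison 30.6% were higher and 31.0% lower. A gene is called higher or lower where edgeR's quasi-likelihood test gave a Benjamini-Hochberg adjusted p under 0.05 over all genes tested, and 142 of the 150 passed the filter on low counts. The median log2 change was 1.37 for the genes of the 150 that were tested, beside −0.01 for all genes tested. Among the 100 higher genes 85 rose at least 2-fold and 36 at least 4-fold. Groups did not overlap, with all 6 hours libraries above all 0 day libraries, for 95 of the 150 and for 30.0% of genes with a mean of at least 1 CPM. Among the 119 members with a mean of at least 1 CPM in SMIR skin at 0 day, 84 were higher.

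Rank 1 had the largest change in SMIR skin, with 91.7, 89.5, 92.7 and 67.4 CPM at 6 hours against 0.43, 0.317, 0.11 and 0.167 CPM at 0 day. Its log2 change was 8.47 (SE 0.53, edgeR adjusted p = 5.0e-09). The level at 6 hours lay below that in LPI skin, where no library was under 190 CPM. Rank 2 had 20.4, 20.7, 19.6 and 13.5 CPM at 6 hours against 0.43, 0.246, 0 and 0.167 CPM at 0 day. Rank 7 had 123, 119, 93.0 and 144 CPM at 6 hours against 20.2, 16.4, 8.40 and 14.3 CPM at 0 day, a log2 change of 3.13 (SE 0.39, edgeR adjusted p = 2.9e-06). Smaller rises were also well separated. Rank 120 had 54.7, 60.2, 56.3 and 55.4 CPM at 6 hours against 17.0, 20.3, 19.4 and 20.5 CPM at 0 day, a log2 change of 1.67 (SE 0.10, edgeR adjusted p = 3e-09).

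Rank 5 rose in SMIR skin with a wide spread. It had 3.82, 5.99, 14.7 and 72.2 CPM at 6 hours against 1.69, 0.845, 1.17 and 1.91 CPM at 0 day, so that rat 4 held most of the signal while the groups did not overlap. Its log2 change was 4.18 (SE 0.78, edgeR adjusted p = 0.00018).

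The 6 genes lower at 6 hours in SMIR skin went the opposite way to LPI skin by group mean. Among them is rank 114 (log2 change −2.34, edgeR adjusted p = 0.00019), which is muscle-abundant and was high in LPI skin in rats 2 and 4 alone. In SMIR skin the muscle-abundant genes summed to 5.69 ± 1.51 CPM at 6 hours and 17.98 ± 1.79 CPM at 0 day (SD, n = 4 each). The part of muscle tissue in the fall of rank 114 was not tested. Rank 149, ENSRNOG00000013042, had 0.571, 0.655, 0.384 and 0.967 CPM at 6 hours against 2.51, 5.31, 3.89 and 5.58 CPM at 0 day. Its log2 change was −2.63 (SE 0.47, edgeR adjusted p = 0.0001). In LPI skin the same gene had 36.8, 29.8, 16.1 and 23.0 CPM at 6 hours against 11.3, 7.59, 6.30 and 7.49 CPM at 0 day. Rank 42 had 49.4, 44.9, 44.0 and 52.7 CPM at 6 hours in SMIR skin against 140, 128, 120 and 135 CPM at 0 day (log2 change −1.34, SE 0.24, edgeR adjusted p = 0.00011). It stayed low at 10 days, with 37.7, 26.4, 24.8 and 31.9 CPM, a log2 change of −2.10 from 0 day (SE 0.25, edgeR adjusted p = 2.4e-05). The difference between the models in skin was not tested, because the choice of the genes used the LPI skin change.

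At 2 days in SMIR skin 86 of the 150 were higher than at 0 day and 11 lower, beside 28.0% and 23.5% of all genes tested. The median log2 change was 0.94 for the tested members and 0.03 for all genes tested. The length trend of these libraries stood apart, and with it as a covariate 26 of the 150 were called, all higher. The shares of all genes given here belong to the fits without this covariate. At 2 days against 6 hours 53 were lower and 11 higher, beside 16.4% and 22.2% of all genes, with median log2 changes of −0.41 and 0.05. With the length trend as a covariate 22 were called in that comparison. Of the 100 genes higher at 6 hours, 48 were lower at 2 days than at 6 hours, 5 were higher and 47 had no call. Of all genes higher at 6 hours, 37.5% were lower and 6.77% higher at 2 days than at 6 hours, and both shares rest on 6 hours libraries that the 2 comparisons have in common. Of the 100, 80 were still higher at 2 days than at 0 day, beside 66.6% of all genes higher at 6 hours. By mean CPM, 90 of the 150 peaked at 6 hours in SMIR skin, 29 at 2 days, 8 at 10 days, 11 at 32 days and 4 at 0 day, while 8 stayed under 1 CPM. Peak times over all genes were not counted.

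Rank 20 kept the short course in SMIR skin. It had 2.13 to 3.42 CPM in the 2 days libraries against 31.9, 28.8, 19.9 and 14.7 CPM at 6 hours, a log2 change of −3.04 (SE 0.32, edgeR adjusted p = 2e-06). Its 0 day libraries held 3.70, 5.84, 1.94 and 3.28 CPM, so that 2 days and 0 day overlapped. Rank 48 did not keep it. It had 35.2, 15.3, 16.4 and 11.1 CPM at 2 days against 7.10, 4.09, 7.72 and 4.30 CPM at 6 hours. The log2 change between these times was 1.83 (SE 0.46, edgeR adjusted p = 0.0046), and the adjusted p was 0.12 with the length trend as a covariate. Rank 3 had 371, 305, 437 and 167 CPM at 2 days against 125, 45.1, 87.5 and 29.6 CPM at 6 hours, and the groups did not overlap. This difference did not pass the test (log2 change 2.23, SE 1.16, edgeR adjusted p = 0.14), and its sign turned with the length trend as a covariate (log2 change −0.60). It passed when only these 8 libraries were fitted (log2 change 2.21, edgeR adjusted p = 0.0041).

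At 10 days in SMIR skin 31 of the 150 were higher than at 0 day and 18 lower, beside 18.5% and 12.9% of all genes tested, which is near the background. Of the 100 genes higher at 6 hours, 27 were also higher at 2 days and 10 days, and 7 were lower at 10 days, beside 35.8% and 1.58% of all genes higher at 6 hours. At 32 days 1 was higher and 3 were lower, beside 3.03% and 0.525% of all genes. At an unadjusted p under 0.05, 16 were higher and 13 lower at 32 days, beside 13.5% and 5.21% of all genes. The count at 32 days changed when most of the 8 libraries were left out, and it was 12 with the 32 days library of rat 3 left out and 0 with the 0 day library of rat 1 left out.

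**Figure D3:**
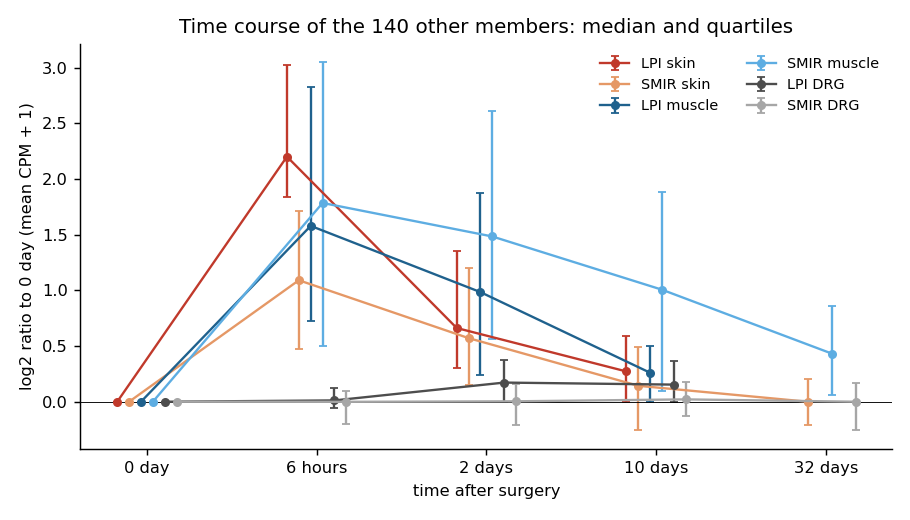
Median (points joined by lines) and quartiles (capped bars) over the 140 genes that are not muscle-abundant of the log2 ratio of mean CPM plus 1 to 0 day, by time after surgery, in the 6 tables of the series. The median at 6 hours is 2.20 in LPI skin, 1.09 in SMIR skin, 1.58 in LPI muscle and 1.79 in SMIR muscle and stays at 0.01 in LPI DRG and −0.00 in SMIR DRG.

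In LPI muscle 100 of the 150 genes were higher at 6 hours than at 0 day and 1 was lower, beside 20.6% and 15.4% of all genes tested. The median log2 change was 2.23 for the tested members and 0.06 for all genes, and 139 of the 150 passed the filter on low counts. Of the 100, 98 rose at least 2-fold and 73 at least 4-fold, and none is muscle-abundant. Groups did not overlap for 81 of the 150 and for 9.71% of genes with a mean of at least 1 CPM. Among the 115 members with a mean of at least 1 CPM at 0 day, 81 were higher. With the 5 skin-rich libraries left out, 87 were higher and 2 lower at 6 hours. Without the 0 day library of rat 1, 91 were higher and 1 lower. The shares of all genes given here belong to the fit of all libraries.

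Rank 2 was at 361, 319, 425 and 759 CPM in LPI muscle at 6 hours against 0.186, 0.734, 0.538 and 0.21 CPM at 0 day. Its log2 change was 10.62 (SE 0.85, edgeR adjusted p = 2.2e-06), and its level at 6 hours in muscle lay above that in the skin of the same rats. Rank 5 was even between libraries, with 373, 307, 327 and 263 CPM at 6 hours against 4.42, 4.27, 3.96 and 3.66 CPM at 0 day (log2 change 6.81, SE 0.30, edgeR adjusted p = 2.5e-08). Rank 7 had a higher level at 6 hours in LPI muscle than ranks 2, 5 and 120. It had 1168, 2161, 2543 and 2685 CPM at 6 hours against 355, 114, 56.3 and 63.1 CPM at 0 day (log2 change 4.42, SE 0.76, edgeR adjusted p = 0.00057). The highest 0 day value is that of rat 1, whose library holds few counts of muscle-enriched genes. Rank 120 had 61.8, 78.6, 92.1 and 94.3 CPM at 6 hours against 12.4, 12.02, 12.1 and 13.6 CPM at 0 day, a log2 change of 3.23 (SE 0.24).

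Rank 1 was called higher in LPI muscle as well, but 1 library stood far above the rest. It had 3.74, 67.9, 7.91 and 7.12 CPM at 6 hours in rats 2 to 5 (log2 change 7.77 from 0 day, SE 1.53, edgeR adjusted p = 0.0015). The library of rat 3 with 67.9 CPM is the one that took 4.27% of its counts from skin-enriched genes. The part of skin tissue in that value was not tested. The 1 lower gene was rank 105, ENSRNOG00000003114, with 4.75, 1.96, 3.12 and 2.37 CPM at 6 hours against 12.9, 12.3, 15.4 and 7.86 CPM at 0 day (log2 change −1.48, SE 0.40, edgeR adjusted p = 0.011).

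At 2 days in LPI muscle 72 of the 150 were higher than at 0 day and 15 lower, beside 21.8% and 18.7% of all genes tested. All 10 muscle-abundant genes were among the 15 lower ones. Muscle-enriched genes held 0.0404% to 0.249% of the counts at 2 days, against 0.0765% (rat 1) to 6.09% at 0 day. The part of muscle content in these calls was not tested. The median log2 change was 1.15 for the tested members and 0.01 for all genes. Against 6 hours 73 were lower and 1 higher at 2 days, beside 17.5% and 14.0% of all genes, with median log2 changes of −1.34 and −0.08. The muscle-abundant genes made up 10 of the 73. Of the 4 libraries at 2 days 3 are skin-rich. With all 5 skin-rich libraries left out, and 1 library remaining at 2 days that is assumed to vary like the other groups, 31 were higher and 0 lower at 2 days against 0 day, and 17 were lower and 1 higher against 6 hours. In the library that remains at 2 days, rat 4, the muscle-abundant genes summed to 418 CPM, against 11108 to 58564 CPM at 6 hours. Skin content, muscle content and the smaller number of libraries cannot be told apart in this drop. No share of all genes is given for these reduced fits.

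Rank 5 had 100, 92.6, 152 and 176 CPM at 2 days in LPI muscle and did not overlap with its 6 hours libraries (log2 change −1.90, SE 0.24, edgeR adjusted p = 0.00013). Rank 7 changed by −2.99 on the log2 scale at 2 days against 6 hours (SE 0.71, edgeR adjusted p = 0.0062). With the skin-rich libraries left out, and 1 library remaining at 2 days, the log2 change was −1.54 for rank 5 (edgeR adjusted p = 0.055) and −2.73 for rank 7 (edgeR adjusted p = 0.29).

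At 10 days in LPI muscle 0 of the 150 were called higher and 0 lower by edgeR, beside 0.172% and 0.148% of all genes tested. At an unadjusted p under 0.05, 13 were higher and 0 lower, beside 8.40% and 6.51% of all genes. DESeq2 called 3, all higher, beside 5.18% of all genes in either direction. The median log2 change was 0.25 for the tested members and 0.03 for all genes. By mean CPM 102 of the 150 peaked at 6 hours in LPI muscle, 20 at 2 days, 6 at 10 days and 10 at 0 day, while 12 stayed under 1 CPM. Peak times over all genes were not counted.

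In SMIR muscle 91 of the 150 genes were higher at 6 hours than at 0 day and 1 was lower, beside 17.7% and 14.0% of all genes tested. The median log2 change was 2.37 for the tested members and −0.07 for all genes, and 132 of the 150 passed the filter. Of the 91, 89 rose at least 2-fold and 69 at least 4-fold. Groups did not overlap for 82 of the 150 and for 16.7% of genes with a mean of at least 1 CPM. Among the 92 members with a mean of at least 1 CPM at 0 day, 63 were higher. None of the 10 muscle-abundant genes was called at 6 hours in either muscle table. In SMIR muscle their sum was 131853 ± 39833 CPM at 6 hours and 166022 ± 8642 CPM at 0 day (SD, n = 4 each).

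Rank 2 was absent from all 4 SMIR muscle libraries at 0 day and had 289, 325, 108 and 209 CPM at 6 hours. Against a floor of 3 counts over the 0 day group it was at least 11599-fold higher at 6 hours. Rank 7 had 534, 892, 444 and 815 CPM at 6 hours against 1.18, 4.79, 2.34 and 5.33 CPM at 0 day (log2 change 7.52, SE 0.92, edgeR adjusted p = 1.2e-05). Its 0 day level was thus far below that of LPI muscle, where it had 56.3 to 355 CPM. Rank 5 had 73.2, 400, 203 and 488 CPM at 6 hours against 1.32, 1.87, 1.20 and 1.75 CPM at 0 day (log2 change 7.34, SE 0.61, edgeR adjusted p = 3.4e-07). At 2 days it had 63.7, 12.8, 13.5 and 28.3 CPM, all below the 6 hours libraries and above the 0 day libraries.

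Rank 120 had 20.2, 38.8, 39.9 and 57.8 CPM at 6 hours in SMIR muscle against 8.30, 9.26, 8.35 and 7.99 CPM at 0 day, a log2 change of 2.03 (SE 0.22). Rank 105 was the 1 gene lower at 6 hours here too, with 0.188, 0.609, 0.572 and 2.96 CPM against 1.77, 3.29, 2.18 and 4.11 CPM at 0 day. The groups overlapped through the 6 hours library of rat 4 (log2 change −1.72, SE 0.49, edgeR adjusted p = 0.013). The adjusted p was 0.070 when only these 8 libraries were fitted. In SMIR skin rank 105 had 8.95, 11.8, 12.2 and 6.97 CPM at 6 hours against 6.91, 7.004, 7.33 and 7.39 CPM at 0 day (log2 change 0.61, edgeR adjusted p = 0.038).

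At 2 days in SMIR muscle 69 of the 150 were higher than at 0 day and 14 lower, beside 25.1% and 23.0% of all genes tested, with median log2 changes of 1.22 for the tested members and 0.09 for all genes. At 10 days 52 were higher and 14 lower, beside 22.2% and 20.9% of all genes, with medians of 0.77 and 0.10. Muscle-abundant genes made up 9 of the 14 lower at 2 days and 7 of the 14 lower at 10 days. Muscle-enriched genes held 1.10% to 3.02% of the counts at 2 days and 1.40% to 4.75% at 10 days, against 4.66% to 6.21% at 0 day. Their part in these counts was not tested. With the length trend as a covariate 23 were called at 10 days, and the shares of all genes given here belong to the fit without it.

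At 2 days against 6 hours in SMIR muscle 71 of the 150 were lower and 2 higher, beside 18.5% and 19.4% of all genes tested, with median log2 changes of −1.29 and 0.01. Of the 91 genes higher at 6 hours, 57 were lower at 2 days than at 6 hours and 34 had no call, beside 40.1% lower among all genes higher at 6 hours. Of the same 91, 66 were still higher at 2 days than at 0 day and 48 were higher at both 2 days and 10 days, beside 60.8% and 43.7%. At 32 days 0 were called higher and 0 lower by edgeR, beside 0.0727% and 0.0121% of all genes, while 24 were higher and 1 lower at an unadjusted p under 0.05, beside 8.47% and 3.28%. DESeq2 called 11 of the 150 in either direction, beside 2.81% of all genes. By mean CPM 65 peaked at 6 hours in SMIR muscle, 31 at 2 days, 14 at 10 days, 9 at 32 days and 11 at 0 day, while 20 stayed under 1 CPM. Peak times over all genes were not counted.

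**Figure D4:**
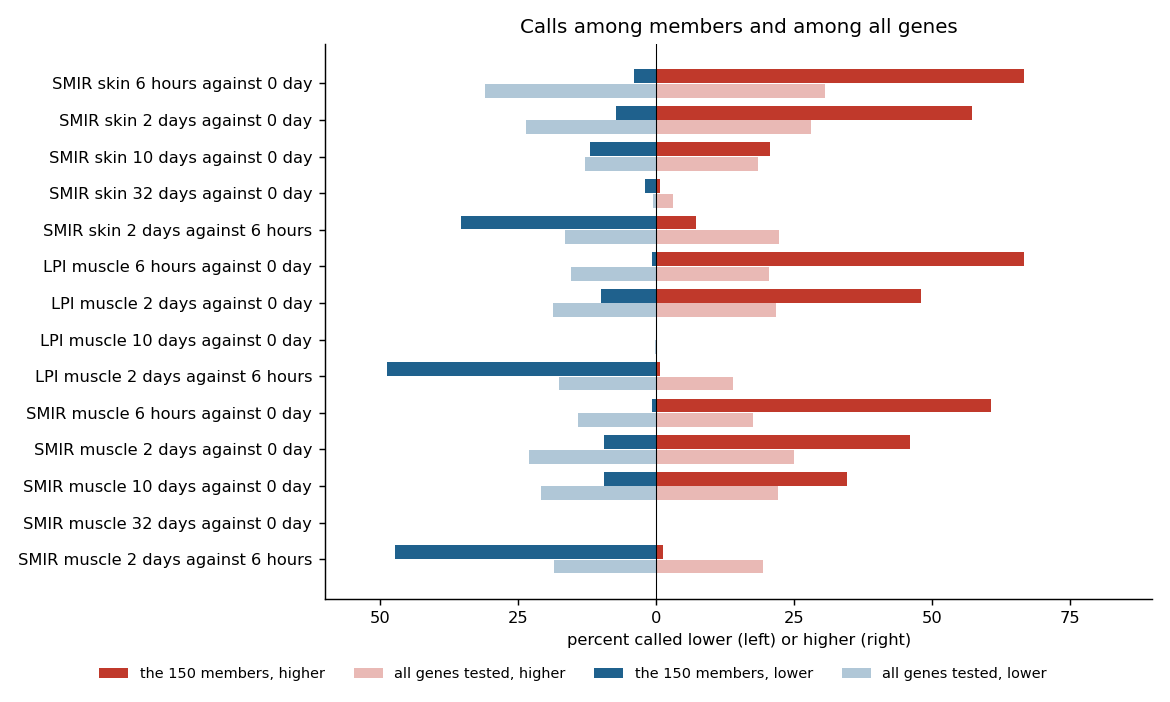
Share in percent of the 150 genes and of all genes tested that were called higher (to the right of 0) or lower (to the left) at an edgeR adjusted p under 0.05, in 14 comparisons of SMIR skin, LPI muscle and SMIR muscle. At 6 hours against 0 day the 150 genes hold 100, 100 and 91 higher calls, beside 30.6%, 20.6% and 17.7% of all genes tested.

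Over the 3 tables that the choice had not used, 67 of the 150 were higher at 6 hours in all 3, beside 8.30% of the genes tested in all 3. Of the 150, 128 were tested in all 3. At least 1 rise was called for 125 of the 150 and for 39.0% of 18055 genes tested in at least 1 table, and none for 25 of the 150 and 61.0% of those genes. A rise was called in SMIR skin alone for 16 genes, beside 14.8% of the 18055, and in both muscles but not SMIR skin for 15, beside 3.31%. It was called in SMIR skin and LPI muscle for 13, beside 5.28%, and in SMIR skin and SMIR muscle for 4, beside 2.20%. LPI muscle alone had 5, beside 2.83%, and SMIR muscle alone had 5, beside 3.55%. These patterns count calls and are not tests of a difference between tissues.

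The difference between tissues was tested over the SMIR libraries, as the skin change minus the muscle change at 6 hours against 0 day. The fit had no term for the rat, so that skin and muscle of one rat were treated as independent. A block by rat was an alternative only. Of the 150 genes 63 had a lower value in this difference, with a larger rise or smaller fall in muscle, and 7 a higher one, beside 19.2% and 11.1% of all genes tested. The median difference was −1.48 on the log2 scale for the 148 members tested and −0.18 for all genes. Among 121 members with counts in both tissues at 0 day and tested in both, 93 had the larger change in muscle. The matching share over all genes was not counted. The starting levels differ as well, since the median of the genes' mean CPM at 0 day was 8.55 in SMIR skin and 3.40 in SMIR muscle. Skin-enriched genes held 0.0228% to 0.0424% of SMIR muscle counts at 0 day and 0.0947% to 0.375% at 6 hours. Rat 4 of SMIR muscle at 6 hours had the lowest sum of the muscle-abundant genes in its group, 72833 CPM. It also had the highest sum of the other members, 15215 CPM. The part of starting level and tissue content in the folds was not tested.

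**Figure D5:**
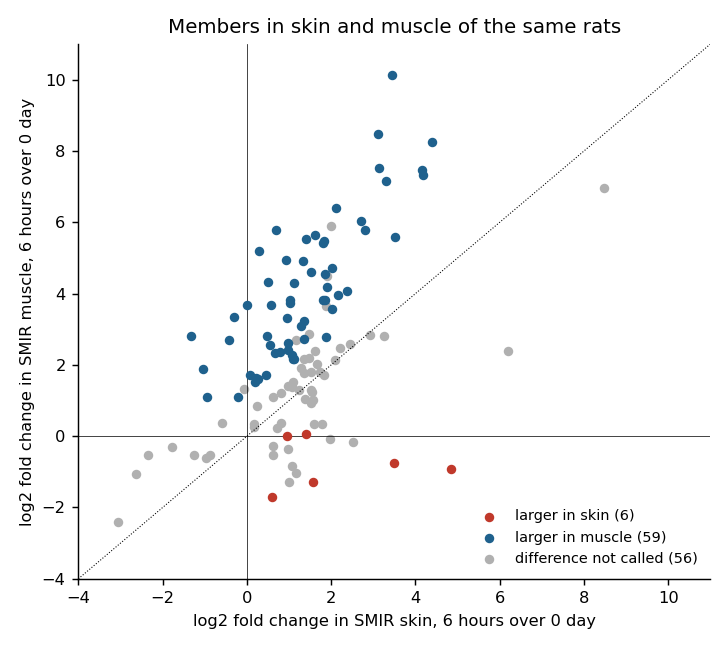
Log2 change at 6 hours against 0 day in SMIR skin (x axis) and in SMIR muscle (y axis) for 121 genes of the 150 that were tested in both and had counts at 0 day in both, with the diagonal of equal change. Colours give the test of the difference: 6 genes changed more towards higher values in skin, 59 in muscle, and 56 were not called; 93 lie above the diagonal. Shares over all genes were not counted for this plot.

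Rank 33 is from the larger group, with a difference well beyond the median of the members. It had 77.9, 62.3, 67.6 and 63.9 CPM at 6 hours in SMIR skin against 22.9, 19.8, 19.5 and 22.8 CPM at 0 day. In SMIR muscle it had 310, 382, 461 and 473 CPM at 6 hours against 8.92, 9.60, 8.11 and 8.47 CPM at 0 day. The skin minus muscle difference was −3.71 (SE 0.24, edgeR adjusted p = 2.8e-12), with the muscle below the skin at 0 day and above it at 6 hours in every library. For rank 5 the difference was −3.24 (SE 0.89, edgeR adjusted p = 0.006).

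Ranks 4 and 35 went the other way. Rank 4 had 33.6, 20.8, 16.2 and 13.3 CPM at 6 hours in SMIR skin against 1.12, 0.634, 1.25 and 0.201 CPM at 0 day. In SMIR muscle it had 0.219, 0.16, 0.323 and 0.107 CPM at 6 hours against 0.215, 0.368, 0.338 and 0.6 CPM at 0 day, and the groups overlapped. The difference was 5.69 (SE 0.93, edgeR adjusted p = 2.7e-05). Rank 35 had 88.7, 99.0, 101 and 82.1 CPM at 6 hours in SMIR skin against 6.61, 7.25, 11.4 and 10.8 CPM at 0 day. In SMIR muscle it had 0.281, 0, 0.199 and 1.91 CPM at 6 hours against 0.43, 1.87, 0.572 and 0.288 CPM at 0 day. Its difference was 4.09 (SE 0.85, edgeR adjusted p = 0.00045), so that both genes had a rise in skin and low, overlapping values in muscle.

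The difference between the models was tested in muscle at 6 hours. The SMIR change minus the LPI change was higher for 7 of the 150 and lower for 5, beside 2.45% and 2.56% of all genes tested, with a median of −0.20 for the 143 members tested and −0.06 for all genes. The count of 12 depended on the setting: DESeq2 called 30, beside 9.60% of all genes, and leaving out one library at a time gave 6 to 18, with 6 without rat 1 or without rat 2 at 0 day in LPI muscle. At an unadjusted p under 0.05, 24 were higher and 16 lower, beside 9.98% and 11.1% of all genes. Rank 33 rose more in SMIR muscle (log2 change 5.41) than in LPI muscle, where it had 193, 264, 215 and 510 CPM at 6 hours against 41.5, 35.2, 30.7 and 39.9 CPM at 0 day (log2 change 3.49). The difference was 1.93 (SE 0.31, edgeR adjusted p = 0.00091), and the 0 day level was higher in LPI muscle.

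Rank 46 rose less in SMIR muscle than in LPI muscle. It had 156, 148, 91.3 and 125 CPM at 6 hours in SMIR muscle against 66.6, 63.8, 24.8 and 47.4 CPM at 0 day, and 114, 94.0, 135 and 162 CPM at 6 hours in LPI muscle against 13.4, 18.3, 23.7 and 19.98 CPM at 0 day. The difference was −1.93 (SE 0.50, edgeR adjusted p = 0.022), and it was lost under 5 alternatives, among them the fits without rat 1 or rat 2 at 0 day in LPI muscle and without rat 1 at 0 day in SMIR muscle. Rank 133 had 3.00, 4.68, 3.93 and 6.31 CPM at 6 hours in SMIR muscle against 3.95, 2.39, 5.67 and 4.08 CPM at 0 day, and these groups overlapped. In LPI muscle it had 5.58, 5.02, 3.91 and 4.12 CPM at 6 hours against 1.97, 2.80, 1.42 and 2.02 CPM at 0 day, and the difference was −1.72 (SE 0.36, edgeR adjusted p = 0.0059). With a replicate block by the rat number the adjusted p was 0.061.

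The DRG, which were not incised, are given as a description with no test. The median ratio of 6 hours to 0 day over the 140 genes that are not muscle-abundant, after adding 1 CPM, was 1.01 in LPI DRG and 1.00 in SMIR DRG. It was 4.60 in LPI skin, 2.13 in SMIR skin, 2.99 in LPI muscle and 3.45 in SMIR muscle. None of the 140 reached a ratio of 2 in the DRG, where the highest were 1.75 in LPI and 1.49 in SMIR. The SMIR DRG 0 day library of rat 4 goes against its label, with 3.23% of its counts from DRG-enriched genes against 16.8% to 19.2% in the other 3. Without it the SMIR DRG median was 0.993, the highest ratio was 2.65, and 1 of the 140 reached 2. The LPI skin value is the one the genes were chosen by.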

How the data were processed

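For every combination of model and tissue the authors deposited a table of gene read counts and a table of FPKM values, with the same genes in each. The submitters' processing notes name FastQC 0.11.2, STAR and StringTie and the builds rn6 and hg38, without roles. The sources used here give no counting settings, annotation or treatment of near-identical genes, so genes that share reads with a copy could not be singled out. Strand-specific TruSeq libraries were sequenced, per the labels' protocols. The deposited counts are whole and without normalization. The deposited FPKM values served for levels per length and to derive gene lengths.

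Each column name holds the model, a code for the time, the number of a rat and the tissue. Code 1 stands in no label and was read as 6 hours, the one time left over; 0 columns stayed unassigned. The same number in the same model and time was taken as the same rat across tissues, and it does not mark a rat across times. In the 108 pairs of skin or muscle libraries of one group, chi-square of the counts divided by its degrees of freedom was never under 16.3, far above sampling noise.

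The members, lists and tests were chosen with earlier results of these data known. Tests used edgeR 4.0.16 in R 4.3.3 on the whole table of a model and tissue with all its times: TMM scaling, filterByExpr, robust glmQLFit and a two-sided glmQLFTest, Benjamini-Hochberg adjusted p under 0.05 over all genes tested, in 16 comparisons. Differences between tissues or models are interaction terms of joint fits. The SE is derived, as the absolute log2 change divided by the square root of edgeR's F statistic, and is rough for genes near 0 counts. Log2 changes carry edgeR's prior count, so a gene at or near 0 in a group has no exact fold; folds against groups with 0 counts are lower bounds from a floor of 3 counts over the group, which covers counting error only. Depth per library is given with the results. The fit was tested on simulated data. DESeq2 1.42.0, DESeq2 size factors, no filter, a length covariate, number and rat blocks, other choices of members and left-out libraries were alternatives.

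Genes were taken as tissue-enriched where the 0 day mean was 5 CPM or more in that tissue and, with 0.1 CPM added, 8 or more times that of the other tissues, in both models. Members were then taken out of the sets. The means include LPI muscle of rat 1 and SMIR DRG of rat 4, which go against their labels. Through rat 4 the muscle-abundant genes summed to 22623 ± 44075 CPM in SMIR DRG at 0 day. Genes abundant in muscle can thus miss the limit, and shares of muscle-enriched genes may understate muscle content. The sets were not rebuilt without these libraries. The muscle-abundant class (at least 1000 CPM) and the skin-rich libraries (at least 1% of counts from skin-enriched genes) were defined after the data were seen.

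The rule for named genes took the 12 highest LPI skin ratios, the 5 genes on each side of the limit, and per comparison at 6 hours the 8 largest rises, 4 largest falls and 4 largest differences each way. Of these, the text describes the ones with the clearest levels in both groups, and ranks 25, 68, 69 and 122 were added after their values were seen. Rank 20 met the rule for the SMIR minus LPI difference in muscle, but its SMIR skin course was added after its values were seen. Ranks 15, 20 and 22 had larger differences there than rank 33 (5.53, 3.63 and 2.75) and are not described for it. Ranks 33 and 5 met the rule in other comparisons, but not for the skin minus muscle difference in SMIR. The largest such differences towards muscle were those of ranks 127, 2, 11 and 62 (−10.87, −10.16, −6.77 and −5.77). The largest towards skin was that of rank 48 (9.24). These are not described for it. Of 32623 gene IDs, 0 matched the reference table of 47357 genes, so 26 gene lists (576 symbols), the marker lists and promoter motifs were not used here.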

Additional observations from a re-analysis of the deposited data

Results flagged for a closer look

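Single libraries were marked where the highest or lowest of 4 stood apart by Dixon's 95% limit. Of 139 groups checked 20 were marked, and chance marks about 1 in 20.

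Among single genes, rank 1 had 1.57 CPM in rat 4 of LPI skin at 0 day (others 0.162 to 0.238), 67.4 CPM in rat 4 of SMIR skin at 6 hours (others 89.5 to 92.7) and 67.9 CPM in rat 3 of LPI muscle at 6 hours (others 3.74 to 7.91). In the same SMIR skin library of rat 4, rank 2 had 13.5 CPM (others 19.6 to 20.7) and rank 5 had 72.2 CPM (others 3.82 to 14.7). Rank 7 had 14.3 CPM in rat 1 of LPI skin at 0 day, above 11.9 to 12.04 CPM in the others. In SMIR muscle at 6 hours rat 4 had 2.96 CPM of rank 105 (others 0.188 to 0.609) and 1.91 CPM of rank 35 (others 0 to 0.281).

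The summed CPM of the 140 genes that are not muscle-abundant was 11741 in rat 1 of SMIR skin at 6 hours and 9360 in rat 1 at 2 days, both above the other 3. It was 5636 in rat 3 of SMIR muscle at 32 days, above the others. In SMIR DRG it was 3381 in rat 4 at 0 day and 8698 in rat 5 at 10 days, both below the others.

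The 10 muscle-abundant genes summed to 5.70 CPM in rat 4 of LPI skin at 2 days, 29.8 in rat 6 of SMIR skin at 2 days and 250.3 in rat 3 of SMIR skin at 32 days. Their sum was 6315 CPM in rat 6 of LPI DRG at 10 days, 88725 in rat 4 of SMIR DRG at 0 day, 7708 in rat 1 of SMIR DRG at 6 hours and 4918 in rat 6 of SMIR DRG at 10 days. Each of these stood above the other 3 libraries. The SMIR DRG library of rat 4 at 0 day took 2.13% of its counts from muscle-enriched genes, so that this library goes against its label.

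A test of the difference itself marked 70 genes for the skin change minus the muscle change in SMIR, among them rank 33 (−3.71), rank 4 (5.69), rank 5 (−3.24) and rank 35 (4.09). For muscle, SMIR minus LPI, it marked 12 genes, among them rank 33 (1.93), rank 46 (−1.93) and rank 133 (−1.72).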

How the results depend on the processing

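The counts of called genes, higher and lower together, were recomputed under 294 alternatives. No share of all genes stands beside the counts of this section, so they do not show whether a change is particular to the members. The length trend as a covariate gave 26 at 2 days and 22 at 2 days against 6 hours in SMIR skin, 0 at 32 days in SMIR skin and 23 at 10 days in SMIR muscle; at 2 days against 6 hours rank 3 reversed to −0.60, with an adjusted p of 0.87. DESeq2 gave 15 at 32 days in SMIR skin, 3 at 10 days in LPI muscle, 11 at 32 days in SMIR muscle and 30 for the SMIR minus LPI difference in muscle. At 32 days in SMIR skin, members chosen with CPM plus 5 gave 7 and the 2 groups alone gave 0. Leaving out the skin-rich LPI muscle libraries gave 31 at 2 days and 18 at 2 days against 6 hours. Without the SMIR DRG 0 day library of rat 4, an alternative chosen after seeing the data like the skin-rich libraries, the highest SMIR DRG ratio was 2.65 instead of 1.49. The cause of these changes was not tested.

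Deviations of libraries with the same number had an r of −0.23 to 0.25 in SMIR skin, −0.52 to 0.55 in LPI muscle and −0.64 to 0.46 in SMIR muscle. The medians were −0.014, 0.038 and −0.032, beside 0.00041, 0.0023 and 0.040 for libraries with different numbers. The number was not taken to pair libraries across times. A replicate block by that number gave 1 at 32 days in SMIR skin, 51 at 2 days in LPI muscle, 41 at 10 days and 47 at 2 days against 6 hours in SMIR muscle, and 3 for the muscle difference. A block by rat for the skin minus muscle difference gave 66.

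Leaving out one library at a time gave 98 to 104 genes in SMIR skin at 6 hours, 87 to 95 at 2 days, 32 to 44 at 10 days (32 without rat 4 at 0 day), 0 to 12 at 32 days and 51 to 61 at 2 days against 6 hours. In LPI muscle it gave 86 to 100, 67 to 88, 0 to 1 (1 without rat 7 at 10 days) and 65 to 77. In SMIR muscle it gave 82 to 92, 75 to 82, 48 to 72, 0 to 2 (2 without rat 1 at 32 days) and 63 to 76. For the skin minus muscle difference it gave 61 to 77, and for the muscle difference 6 to 18. Over 505 alternatives for 31 results of single genes, 30 of them called, 24 kept the call throughout, and the rest lost it in 10. Depth limits genes under 1 CPM, whose changes rest on few counts.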
